A study of Homo sapiens with 3 samples.

Results

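The genes described here are regulators of apoptosis: the BCL2 family, the caspases with their inhibitors, and the death receptors with their adaptors. They were chosen by name from a list of 41 gene symbols, and each was read from 1 probe set, that of the highest mean log2 signal among the probe sets with that symbol alone. Of the 41 genes, 39 could be read in this way, out of 19775 genes in all, while BBC3 and RIPK1 had no probe set with their symbol alone and were not analysed here. Total RNA came from 3 cultures labelled HepG2, a human liver tumour cell line. The cells carried, as stable transfectants, a vector for the Hsp27 open reading frame (ORF), one for a short hairpin RNA to Hsp27 (shRNA) or a control vector. The sample titles name IRES2 for the first, siRNA for the second and EGFP for the last. All were grown in the same serum-supplemented medium, and each group had 1 array. The labels do not say whether the transfected cells were a pool or a clone.

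Apoptosis runs along 2 routes that meet at the caspases, the proteases that dismantle the cell. In the mitochondrial route, BH3-only proteins sense damage and neutralise the survival members of the BCL2 family, so that BAX and BAK1 open the outer mitochondrial membrane. Cytochrome c then escapes and assembles APAF1 and caspase-9 into the apoptosome. In the other route, ligands such as FAS ligand and TRAIL engage death receptors, which recruit FADD and activate caspase-8, and BID links this route to the mitochondria. Hsp27, a small heat shock protein and the product of HSPB1, is known to bind cytochrome c after its release, which limits the apoptosome, and to bind DAXX, an adaptor of the FAS receptor. Much of this system is controlled at the protein level by binding, phosphorylation and cleavage, which a transcript array does not read.

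The deposited values were MAS5 signals on a log2 scale. Lower signals were set to a floor of 5.93, the median over all arrays, before ratios were taken, and genes whose highest array reached the pooled 75th percentile of 8.63 are called bright. A gene is called higher or lower where its signals differed at least 1.5-fold, and since each group is a single array, no difference has a p-value or a replicate check. As a partial guide to technical error, a probe-set noise SD was taken from how far probe sets of 1 gene differ at like signal. It covers differences between probe sets on the same arrays, which can include those between splice forms. Labelling or array effects shared by the probe sets of a gene cancel in it. Variation between cultures is not covered. HSPB1 had log2 signals of 13.11 on the ORF array, 13.03 on the shRNA array and 13.25 on the control array. It was thus not higher on the ORF array than on the control array (log2 ratio −0.14, noise SD 0.089), and its signal with the shRNA differed by −0.22 (noise SD 0.126). The libraries are therefore called by their labels, and every direction below rests on them. Of 9 measured hepatocyte markers, 2 were above the floor on any array (AFP and TF) and 0 were bright, on the probe set read for each gene. The defining markers ALB, TTR and APOB were below the floor on all of their probe sets, and APOA1 on 2 of 3. Of 6 fibroblast and stellate cell markers, 6 were above the floor and 3 bright, with log2 ratios to control from −0.53 to 0.15 with ORF and from −0.90 to 0.80 with shRNA. LUM, the brightest of these fibroblast and stellate cell markers, read 13.03 with ORF, 13.35 with shRNA and 13.30 with control. Of the leukocyte markers 2 of 6 and of the endothelial markers 2 of 5 were above the floor, none of them bright. The ACTB signal near the 3′ end was 2.40 times that near the 5′ end with ORF, 2.23 times with shRNA and 2.70 times with control. For GAPDH the same ratio was 0.94 with ORF, 0.90 with shRNA and 0.93 with control. Low hepatocyte markers beside bright fibroblast and stellate cell markers do not match the HepG2 label, and the identity of the cells was not tested. The part of these markers and of RNA quality in the results was not tested either. In bulk RNA fewer cells of a type and less RNA per cell cannot be told apart.

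Of the 39 measured members, 36 reached the floor or more on some array and 30 were bright. Between the array labelled ORF and the array labelled control, 1 of the 36 was at least 1.5-fold higher (BMF) and 0 were lower, where 3.04% of the 12664 genes above the floor were higher and 2.82% lower. Between shRNA and control, 1 was higher (BOK) and 0 were lower, against 3.59% and 3.30% of all genes. Between ORF and shRNA, 2 were higher (BAD and BMF) and 1 was lower (BOK), against 2.64% and 2.68%. The members' share in either direction was 2.78% for ORF against control, 2.78% for shRNA against control and 8.33% for ORF against shRNA, where all genes gave 5.86%, 6.89% and 5.32%. Among the 30 bright members, 0 differed from control with ORF, 0 with shRNA, and 1 differed between ORF and shRNA (BAD), where 2.26%, 3.23% and 2.0% of 8181 bright genes did so in either direction. Each of these counts is of 0 to 3 genes, and nothing particular to the members is read from them.

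The median log2 ratio of the 36 members was 0.07 for ORF against control, 0.01 for shRNA against control and 0.07 for ORF against shRNA. Over all 12664 genes it was 0, −0.006 and 0.005. The median size of the ratio, regardless of sign, was 0.142, 0.144 and 0.121 for the members and 0.134, 0.161 and 0.137 for all genes. For ORF against control, 19 of the 36 members had ratios smaller than 1 noise SD (52.8%, against 61.7% of all genes) and 1 exceeded 2 noise SDs (BMF). For shRNA against control the counts were 26 (72.2%, against 63.9%) and 2 (BOK and BAD). For ORF against shRNA they were 22 (61.1%, against 64.9%) and 4 (BOK, BAD, BCL2L11 and APAF1). Over all genes, 11.7%, 9.07% and 9.18% exceeded 2 noise SDs in these comparisons. Differences of the members were thus about as large as those of genes in general, and the plot of signals by array shows each of them.

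**Figure D1:**
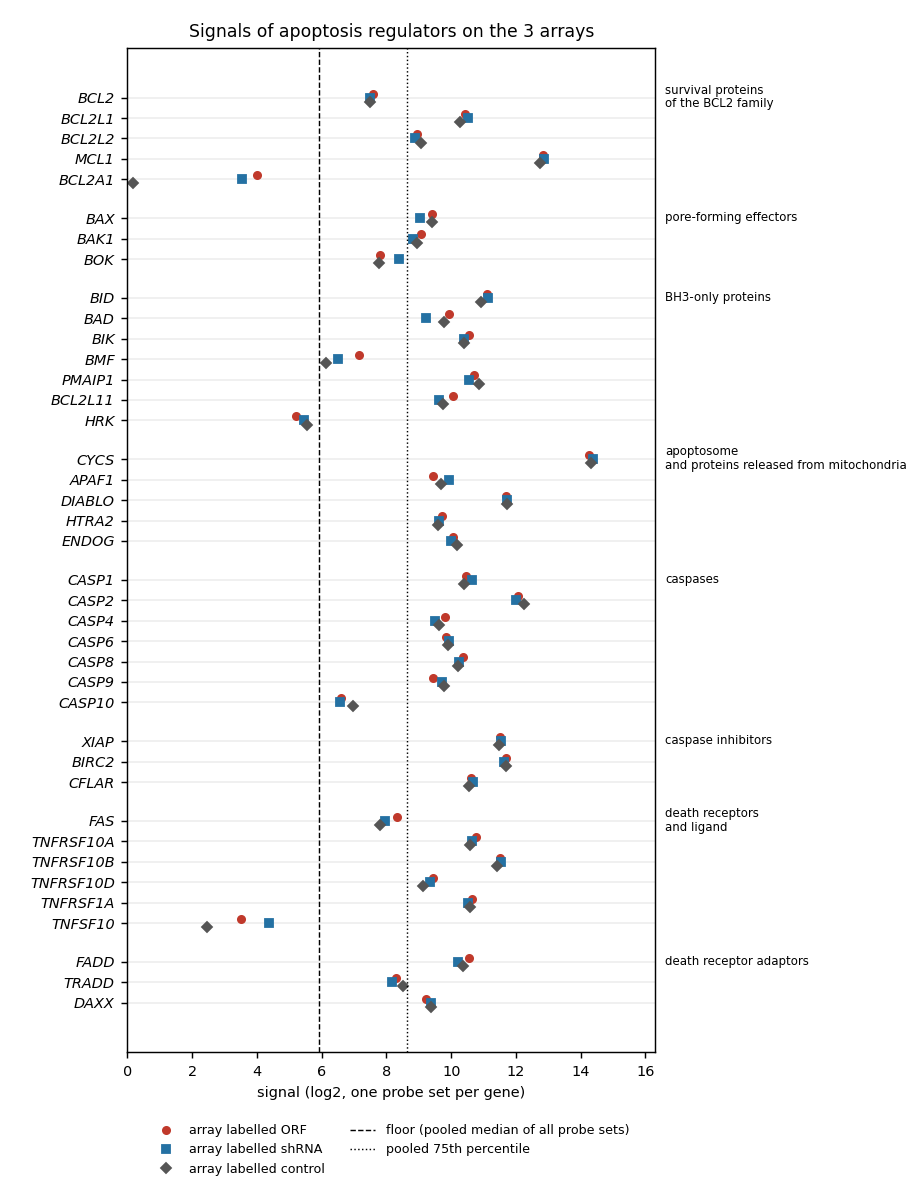
Log2 signal of each of the 39 measured members on the arrays labelled ORF (circles), shRNA (squares) and control (diamonds), 1 probe set per gene, grouped by role. The dashed line is the floor at 5.93 and the dotted line the pooled 75th percentile at 8.63. The markers of most genes nearly coincide, and BMF, BOK and BAD spread the most among the genes above the floor, while BCL2A1, HRK and TNFSF10 lie below it on every array.

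The 3 members past the 1.5-fold threshold in any comparison were BMF, BAD and BOK. The 250 bases before their RefSeq transcription starts (build GRCh38.p14) are shown because these members had the widest spread. Whether these bases control the genes in the cultures used was not tested. The same window of CYCS, a partner of Hsp27 whose signal varied little, is set beside them. Each runs 5′ to 3′ on the gene's strand and ends at the base before the start. For BMF and BAD, which have 2 listed starts each, the window of the first is given. Capitals mark matches, on either strand, to the GC box (GGGCGG) or the CCAAT box (CCAAT).
BMF (chr15:40108880-40109129, minus strand): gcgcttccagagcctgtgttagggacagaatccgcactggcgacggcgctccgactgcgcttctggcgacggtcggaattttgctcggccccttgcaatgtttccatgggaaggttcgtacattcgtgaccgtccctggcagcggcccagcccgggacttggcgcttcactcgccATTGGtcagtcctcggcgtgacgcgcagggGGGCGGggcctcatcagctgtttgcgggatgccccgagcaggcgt
BOK (chr2:241558495-241558744, plus strand): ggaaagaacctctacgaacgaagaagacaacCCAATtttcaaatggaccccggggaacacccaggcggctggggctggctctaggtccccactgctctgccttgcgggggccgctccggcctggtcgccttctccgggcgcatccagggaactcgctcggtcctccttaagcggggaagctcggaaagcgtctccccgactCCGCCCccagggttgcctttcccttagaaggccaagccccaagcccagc
BAD (chr11:64284705-64284954, minus strand): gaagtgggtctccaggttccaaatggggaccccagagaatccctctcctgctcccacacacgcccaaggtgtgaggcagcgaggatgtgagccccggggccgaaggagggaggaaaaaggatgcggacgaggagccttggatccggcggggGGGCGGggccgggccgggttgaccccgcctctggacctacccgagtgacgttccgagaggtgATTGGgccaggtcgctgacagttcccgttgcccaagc
CYCS (chr7:25125261-25125510, minus strand): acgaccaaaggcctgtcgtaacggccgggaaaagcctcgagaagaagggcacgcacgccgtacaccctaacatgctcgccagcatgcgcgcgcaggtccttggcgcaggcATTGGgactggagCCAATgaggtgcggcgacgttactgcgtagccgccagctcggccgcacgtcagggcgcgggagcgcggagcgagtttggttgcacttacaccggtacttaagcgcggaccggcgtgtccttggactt
The windows of BMF, BOK and BAD each held 1 GC box and 1 CCAAT box, at different distances from the start. The GC box began 45 bases before the start in BMF, 49 in BOK and 99 in BAD, and the CCAAT box 75, 219 and 37 bases before it. The CYCS window held 2 CCAAT boxes and no GC box. Both motifs are common: a GC box was present in 42.6% of 35116 windows of the same length and a CCAAT box in 32.0%. Of the 31 members with a listed window, 21 had a GC box and 14 a CCAAT box in the first window. Also searched were the TATA box (TATAAA, in 10.7% of all windows), the E-box (CACGTG, 6.35%), the AP-1 site (TGANTCA, 6.57%), the cAMP response element (TGACGTCA, 1.65%) and a FOXO site (GTAAACA, 2.98%). These had no match in the 4 windows shown. No 2 matches in them overlapped. A match describes letters in the window, and its absence says nothing about the factor.

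Among the BH3-only proteins, which start the mitochondrial route, BMF had the largest ratio to control of any member. BMF senses detachment from the matrix and disturbance of the actin cytoskeleton. Its log2 signal was 7.14 on the ORF array, 6.49 on the shRNA array and 6.15 on the control array (linear signals of 141, 89.8 and 70.8). ORF was the highest and control the lowest, close to the floor. On the log2 scale ORF exceeded control by 0.99 (1.99-fold, noise SD 0.424) and shRNA by 0.65 (1.57-fold, noise SD 0.425), while shRNA exceeded control by 0.34 (noise SD 0.423). BMF is dim and was read by 1 probe set, so no other probe set bears on these values.

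BAD, a BH3-only protein held inactive by survival kinases through phosphorylation, had log2 signals of 9.94 with ORF, 9.23 with shRNA and 9.77 with control. The shRNA array stood below both others. The log2 ratio to control was 0.16 with ORF (noise SD 0.177) and −0.54 with shRNA (1.46-fold lower, noise SD 0.233). ORF exceeded shRNA by 0.70 (1.63-fold, noise SD 0.206). Its other probe set above the floor read −0.21, −0.35 and 0.14 in the same order. It had the same sign for shRNA against control and the opposite sign for ORF against control. Taking the median of the BAD probe sets, with that below the floor entering as 0, ORF against shRNA fell short of 1.5-fold (0.14).

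BCL2L11 (BIM), which binds every survival member, had log2 signals of 10.05 with ORF, 9.62 with shRNA and 9.76 with control. On its brightest probe set the log2 ratio to control was 0.29 with ORF (noise SD 0.165) and −0.14 with shRNA. ORF exceeded shRNA by 0.42 (noise SD 0.189), and none of these reached 1.5-fold. Of its 7 probe sets above the floor, 6 were higher with ORF than with control and 6 higher with ORF than with shRNA. The remaining one is dim, at 6.73 with ORF, 6.94 with shRNA and 7.35 with control. It gave −0.62 for ORF against control, past 1.5-fold the other way and larger in size than any of the positive ratios. For ORF against shRNA it gave −0.21. BID, the link from caspase-8 to the mitochondria, read 11.10 with ORF, 11.15 with shRNA and 10.92 with control. All 3 of its probe sets read lowest on the control array, with log2 ratios of 0.19 to 0.37 for ORF against control and of 0.20 to 0.35 for shRNA against control. These 2 comparisons share the control array.

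PMAIP1 (NOXA), a p53 target that binds MCL1, differed from control by −0.15 with ORF and −0.31 with shRNA on its brighter probe set, but by 0.09 and 0.15 on the other. The BH3-only gene BIK read between 10.38 and 10.54 on the 3 arrays. HRK, known mainly from neurons, was below the floor on all arrays, with a highest log2 signal of 5.54 on the probe set read for it. Over the 6 BH3-only genes with signal above the floor, ratios had a median of 0.17 for ORF against control, −0.08 for shRNA against control and 0.29 for ORF against shRNA. Over all genes these medians were 0, −0.006 and 0.005. The differences within the BH3-only group, from −0.15 to 0.99 for ORF against control, were wider than its median.

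BAX and BAK1 form the pores in the mitochondrial membrane, and BOK is a related effector that BCL2 does not restrain. BOK had log2 signals of 7.79 with ORF, 8.39 with shRNA and 7.76 with control, so shRNA stood above both others, which nearly coincided. The log2 ratio to control was 0.03 with ORF and 0.63 with shRNA (1.55-fold higher, noise SD 0.311). Between ORF and shRNA it was −0.60 (1.51-fold lower, noise SD 0.272). Its other probe set was below the floor on all arrays. BOK was not called with the median over probe sets (0.31 for shRNA against control), into which that probe set enters as 0. Nor was it called without probe sets named _s_at or _x_at, which can match several transcripts. Only the probe set below the floor was then left, so neither setting bears on the BOK values given here.

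BAX ran the other way from BOK on the shRNA array. Its log2 signals were 9.40 with ORF, 9.02 with shRNA and 9.40 with control. The shRNA array was the lowest on both BAX probe sets, with ratios of −0.37 (noise SD 0.237) and −0.48 against control and of 0.38 on each for ORF against shRNA. ORF against control gave 0.006, a value whose sign turned under each other scaling. BAK1 read 9.06, 8.83 and 8.95 on the ORF, shRNA and control arrays, and its ORF and shRNA signals differed by 0.23 (noise SD 0.229). Neither BAX nor BAK1 reached 1.5-fold in any comparison.

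On their brightest probe sets, the survival members above the floor showed no log2 ratio to control above 0.25 in size. MCL1, a short-lived protein, read 12.85 with ORF, 12.87 with shRNA and 12.73 with control. It exceeded control by 0.12 with ORF (noise SD 0.093) and by 0.14 with shRNA (noise SD 0.13). Its probe sets were at odds: the next brightest read 12.44 with ORF, 12.06 with shRNA and 12.45 with control. A dim MCL1 probe set, below the floor on control, gave 0.73 for ORF against control and 0.51 for shRNA against control. In each of these comparisons 5 MCL1 probe sets were positive and 1 was negative. BCL2L1, which encodes BCL-XL and the shorter BCL-XS, read 10.44, 10.53 and 10.28 on the ORF, shRNA and control arrays. All 4 BCL2L1 probe sets gave positive ratios for shRNA against control, from 0.01 to 0.65, and 2 of 4 did for ORF against control. BCL2 itself lay between 7.49 and 7.58, and BCL2L2 (BCL-W) between 8.87 and 9.07. BCL2A1, an NF-kB target best known from blood cells, was below the floor on all arrays, at most 4.01.

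**Figure D2:**
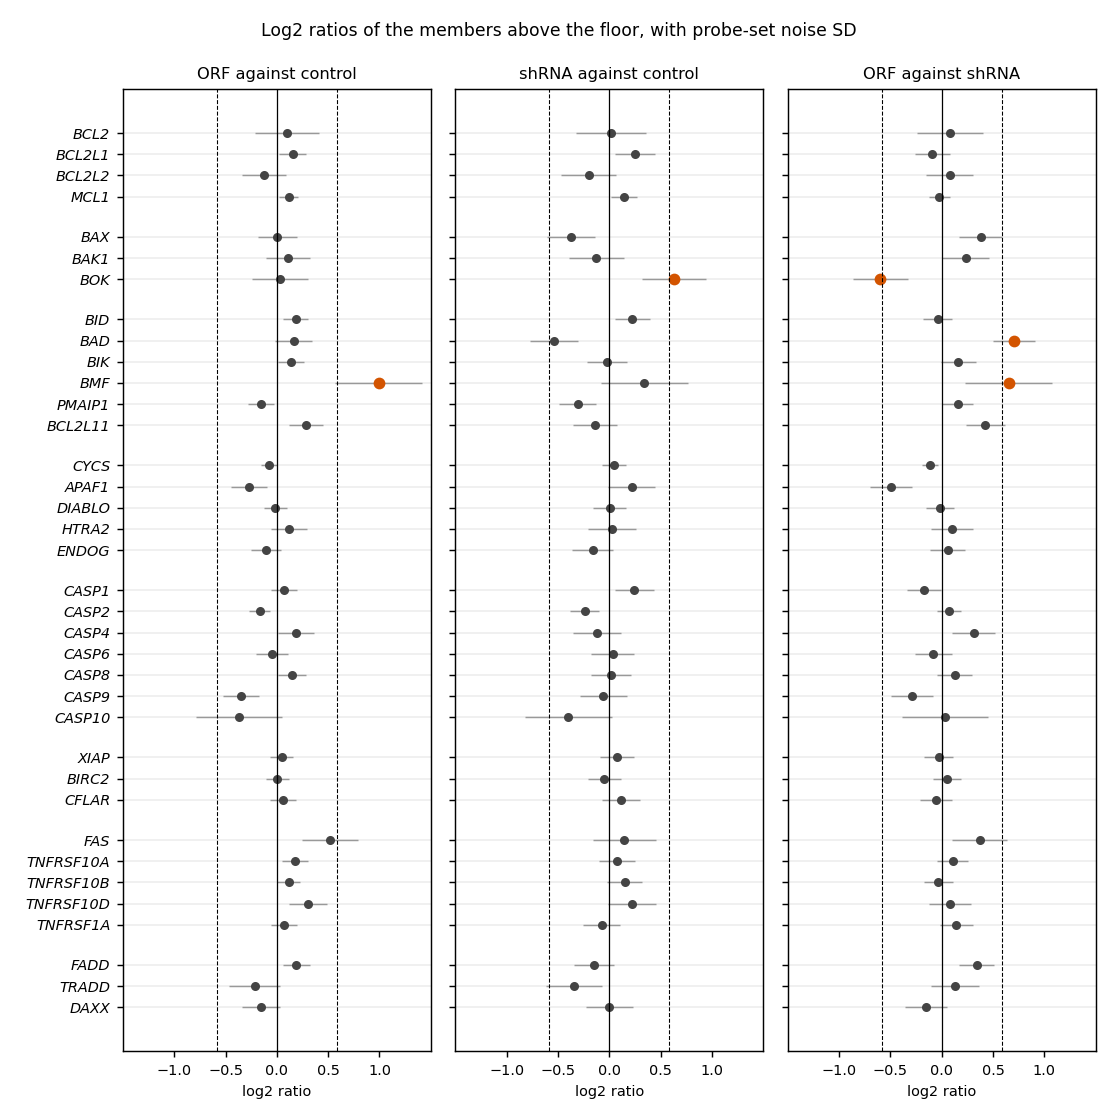
Log2 ratios of the 36 members above the floor, for ORF against control (left), shRNA against control (middle) and, on the right, ORF against shRNA. Horizontal bars are 1 probe-set noise SD to each side, dashed lines mark 1.5-fold, and larger orange points are past it: BMF on the left, BOK in the middle, and BAD, BMF and BOK on the right.

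Cytochrome c, encoded by CYCS, had a log2 signal of 14.25 with ORF, 14.37 with shRNA and 14.32 with control (linear signals of 19484, 21114 and 20505). The 3 values lie within 1.08-fold of each other. The ratio was −0.07 for ORF against control (noise SD 0.079), but 0.04 after quantile normalization and 0.01 after loess centring, so its direction was not settled. With shRNA it was 0.04 (noise SD 0.117), and 0.20 after quantile normalization. CYCS has many processed pseudogenes in the human genome, which its probes might also read. Its 2 dimmer probe sets gave −0.37 and 0.38 for ORF against control.

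DAXX, the other known partner of Hsp27, read 9.23 with ORF, 9.39 with shRNA and 9.39 with control. ORF was the lowest on this probe set, with a ratio to control of −0.15 (noise SD 0.185), and the ratio for shRNA against control was 0.001, whose sign turned under another scaling. The second DAXX probe set gave 0.45 for ORF against control and 0.41 for shRNA against control, so its control signal was the lowest of the 3. Neither partner transcript differed by 1.5-fold in any comparison on its brightest probe set.

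The other proteins of the apoptosome and of the mitochondrial release step stayed below 1.5-fold as well. APAF1, the scaffold of the apoptosome, had log2 signals of 9.43 with ORF, 9.92 with shRNA and 9.70 with control, in the order ORF, control, shRNA. The log2 ratio to control was −0.27 with ORF (noise SD 0.175) and 0.22 with shRNA, and that between ORF and shRNA was −0.49 (1.41-fold lower, noise SD 0.203). The second APAF1 probe set, which is dimmer, had the opposite sign each time (0.12, −0.22 and 0.34). DIABLO (SMAC), which displaces IAPs from caspases, read 11.70 with ORF, 11.72 with shRNA and 11.72 with control. HTRA2, a protease released with it, lay between 9.59 and 9.71 and ENDOG, a mitochondrial nuclease, between 10.00 and 10.17.

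CASP9, the caspase of the apoptosome, was lowest on the ORF array, with log2 signals of 9.44 with ORF, 9.73 with shRNA and 9.79 with control. Its ratio for ORF against control was −0.35 (1.27-fold lower, noise SD 0.177). The other 2 CASP9 probe sets above the floor gave −0.51 and −0.37. For shRNA against control the CASP9 values were −0.06, −0.16 and −0.37. In both comparisons the −0.37 came from the same probe set, whose mean is below the floor. Only its control signal of 6.30 was above the floor, so both of these ratios depend on the floor. CASP2, an initiator that acts in a complex with PIDD1 and CRADD, read 12.07 with ORF, 12.00 with shRNA and 12.24 with control. All 6 CASP2 probe sets above the floor were highest on control, with ratios from −0.71 to −0.07 for ORF and from −0.74 to −0.06 for shRNA. The −0.71 came from a probe set below the floor on the ORF and shRNA arrays, so it depends on the floor. The brightest gave −0.17 (noise SD 0.103) and −0.24 (noise SD 0.141), against the same control array.

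CASP8, the initiator at the death receptors, read 10.36 with ORF, 10.23 with shRNA and 10.21 with control, and both of its probe sets above the floor were higher with ORF than with control (0.15 and 0.43). CASP10, a relative of CASP8, was dim, at 6.59 with ORF, 6.56 with shRNA and 6.96 with control, and its ratios of −0.37 and −0.40 to control were within 1 noise SD. CASP6, an executioner, lay between 9.85 and 9.94. CASP1 and CASP4, which serve inflammation and pyroptosis, read between 10.39 and 10.63 and between 9.50 and 9.81. CASP1 has near-identical neighbours that encode only its recruitment domain, so its values are uncertain. For ORF against control 4 of the 5 CASP1 probe sets were positive, up to 0.49, and the brightest gave 0.07. None of the 7 measured caspases reached 1.5-fold on its brightest probe set.

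The caspase inhibitors had nearly equal signals on the 3 arrays. XIAP, which blocks caspases directly, read 11.52 with ORF, 11.54 with shRNA and 11.47 with control. BIRC2 (cIAP1), a ubiquitin ligase of the TNF receptor complex, read 11.69, 11.64 and 11.69 on the same arrays, and CFLAR (c-FLIP), a catalytically inactive relative of CASP8, read 10.62, 10.67 and 10.55. Every ratio of these 3 genes was within 1 noise SD, from −0.05 to 0.11. CFLAR has 14 probe sets, of which 9 were above the floor, and they ranged from −0.49 to 0.96 for ORF against control and from −0.83 to 0.48 for shRNA against control. The probe sets at both ends of these ranges were dim, at most 7.09 on any array, and CFLAR is known for many splice forms.

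At the cell surface, FAS had the largest ratio to control among the receptors. FAS read 8.32 with ORF, 7.95 with shRNA and 7.80 with control, highest with ORF. The ratio for ORF against control was 0.52 (1.43-fold, noise SD 0.273), just short of 1.5-fold. The other 3 FAS probe sets above the floor gave 0.47, 0.62 and 0.51, so all 4 were higher with ORF, and those 4 share the same 2 RNA samples and are not replicates. For shRNA against control the brightest gave 0.15, the others 0.57, 0.39 and 0 (both arrays below the floor). ORF against shRNA was 0.37 on the brightest probe set (noise SD 0.268) and negative on 1 of the 4.

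The TRAIL receptors TNFRSF10A and TNFRSF10B, which signal death, read 10.76 and 11.52 with ORF, 10.65 and 11.55 with shRNA, and 10.58 and 11.40 with control. All 3 probe sets of TNFRSF10A were higher with ORF than with control (0.18, 0.24 and 0.45), as were all 4 of TNFRSF10B (0.05 to 0.28). TNFRSF10D, a decoy that binds TRAIL without a working death domain, read 9.44 with ORF, 9.36 with shRNA and 9.14 with control, a ratio of 0.30 for ORF against control (noise SD 0.187). The TNF receptor TNFRSF1A lay between 10.51 and 10.65. Their ligand TRAIL itself, encoded by TNFSF10, was below the floor on all arrays, at most 4.36. The median ratio of the 5 receptors above the floor was 0.18 for ORF against control and 0.15 for shRNA against control, and 0 of 5 passed 1.5-fold in either.

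Of the measured adaptors, FADD, which couples the receptors to caspase-8, read 10.54 with ORF, 10.20 with shRNA and 10.35 with control. FADD, read by 1 probe set, had log2 ratios to control of 0.19 with ORF (noise SD 0.131) and −0.15 with shRNA, and ORF exceeded shRNA by 0.34 (noise SD 0.173). TRADD, the adaptor of the TNF receptor, read 8.29 with ORF, 8.16 with shRNA and 8.51 with control. Both TRADD probe sets above the floor were highest on control, with ratios of −0.22 and −0.54 for ORF and of −0.34 and −0.81 for shRNA. The second probe set was thus past 1.5-fold for shRNA against control, and the brighter was not.

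Where a gene has several probe sets, their agreement bears on the probe reading only, since they share the same RNA samples and are not replicates. Of the 25 members with more than 1 probe set above the floor, 6 were higher with ORF than with control on all of them (BID, CASP4, CASP8, FAS, TNFRSF10A and TNFRSF10B) and 5 lower on all of them (BCL2L2, CASP2, CASP6, CASP9 and TRADD). That is 44.0% with a single direction, against 41.2% of 6474 genes. For shRNA against control, 7 were higher and 6 lower on all probe sets (52.0% of the members, 41.9% of all genes), the lower being BCL2L2, BAX, BAD, CASP2, CASP9 and TRADD. For ORF against shRNA, 7 were higher and 2 lower (36.0%, against 41.4%). A single direction over the probe sets of a gene was thus about as common in the members as in all genes for ORF against control. These shares were not matched for the number of probe sets per gene.

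**Figure D3:**
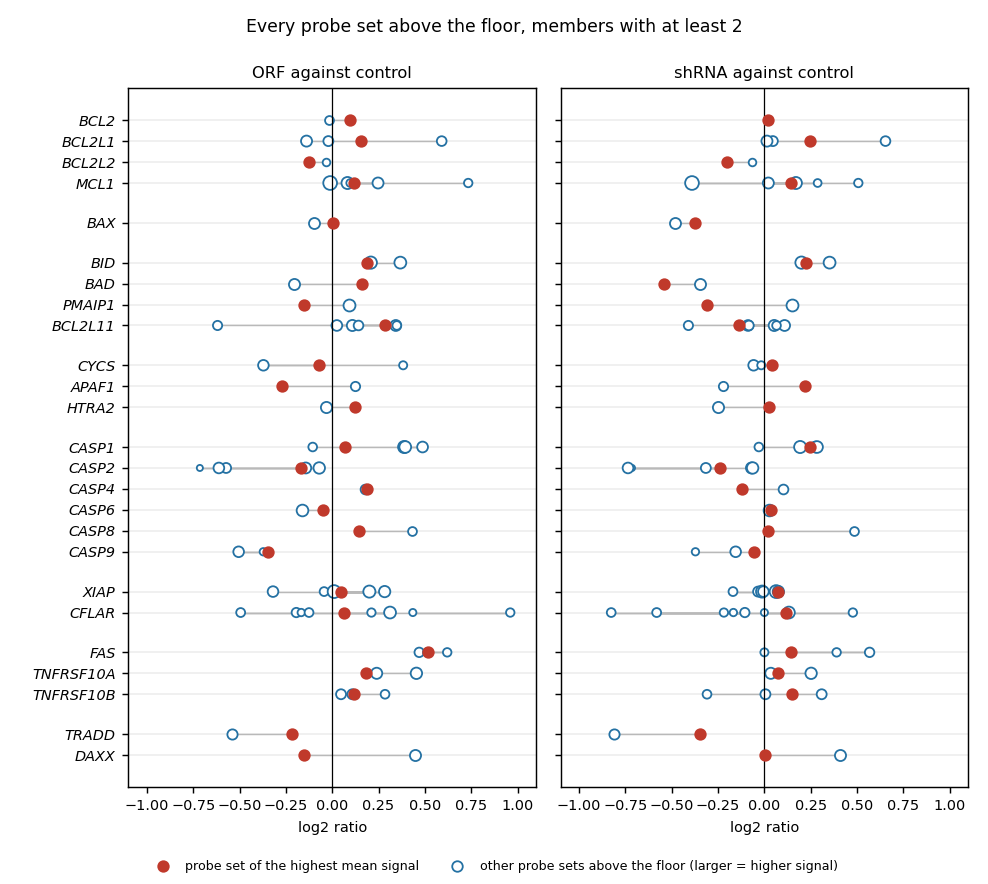
Log2 ratios of every probe set above the floor, for the 25 members with at least 2 of them, for ORF against control on the left and shRNA against control on the right. Filled points are the probe set of the highest mean signal and open circles the others, drawn larger with higher signal. All 4 FAS points lie right of 0 on the left, all 6 CASP2 points lie left of 0 in both, and CFLAR, MCL1 and BCL2L11 spread across 0.

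Further genes of the same pathways, from lists written with earlier results of these data known are given by counts, beside 5.86% of all genes past 1.5-fold for ORF against control, 6.89% for shRNA against control and 5.32% between ORF and shRNA. With 14 or 15 genes a list, counts of 0 or 1 are near those shares. Of 15 other BCL2 family and mitochondrial genes above the floor, 0 passed 1.5-fold in any comparison. The lowest for ORF against control was SLC25A4, the heart and muscle type of the ADP/ATP carrier, with log2 signals of 10.63 with ORF, 10.78 with shRNA and 11.22 with control and a ratio of −0.58 (noise SD 0.124), just short of 1.5-fold. The mitochondrial channels VDAC1, VDAC2 and VDAC3 differed from control by −0.07 to 0.08.

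Of 14 other caspases, IAPs and execution genes above the floor, 1 was lower with shRNA than with control. This was NAIP, an inhibitor that also senses bacterial flagellin, with log2 signals of 7.44 with ORF, 6.49 with shRNA and 7.35 with control. NAIP was lower with shRNA than with control by a log2 ratio of −0.85 (noise SD 0.389), and ORF exceeded shRNA by 0.95 (noise SD 0.371). All 3 NAIP probe sets above the floor were lower with shRNA than with control, but between ORF and shRNA 1 was positive and 2 were negative. NAIP is dim and lies in a duplicated region with partial copies, so its value is uncertain. Of 15 other death receptor and TNF signalling genes above the floor, 0 passed 1.5-fold in any comparison, with medians of 0.09 for ORF against control and 0.12 for shRNA against control. The ligands TNF, FASLG and LTA were below the floor on all arrays.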

How the data were processed

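Total RNA of 3 cultures was measured on 1 short-oligonucleotide array each, as biotin-labelled cRNA amplified from the 3′ end, per the labels' protocols. The authors deposited log2 signals for 54675 probe sets, made with MAS5 per the submitters' processing notes. No MAS5 version or scaling target was given in the sources used here. The log2 scale was recognised from the values: the linear mean without the highest and lowest 2% was 500.1 on each array.

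Each array was rescaled to the same trimmed mean. Gene names came from the platform annotation in GEO (41097 with 1 gene symbol, 1801 with several, 11777 with none), and 41043 of those with 1 symbol matched RefSeq's gene table (GRCh38.p14). Ratios were taken after flooring, between ORF and control, shRNA and control, and ORF and shRNA. The noise SD came from 7219 pairs of probe sets of a gene within 1 of each other in mean log2 signal, in 20 bins of signal. The number of arrays limits the precision.

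Members and lists were chosen with earlier results of these data known. Named were HSPB1, CYCS, DAXX, every member past 1.5-fold, and in each role the brightest member and that of the largest ratio to control. Ratios of other members, such as CASP9, BCL2L11, PMAIP1, BAK1, CASP8, TNFRSF10A and TNFRSF10D, were added after their values were seen, and the rest are given by level. Of the further lists, genes past 1.5-fold from control were named by the rule, while SLC25A4, the VDAC genes, TNF, FASLG, LTA, HIPK2, AKT1, AKT2, IKBKG and MDM2 were chosen after their values were seen. Alternatives were quantile normalization, loess centring, equal medians, no floor, a higher floor (75th percentile), the median over probe sets, leaving out _x_at and _s_at probe sets, and thresholds of 1.3-fold and 2-fold. Promoter windows came from RefSeq. The procedure was run on simulated arrays with known changes set in bright genes, which checks the computation only. It did not cover dim genes, probe sets that disagree or the lack of replicates. Python 3.11.15, pandas 2.3.3 and statsmodels 0.14.6 were used.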

Additional observations from a re-analysis of the deposited data

How the results depend on the processing

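In the comparisons where they passed 1.5-fold, BMF, BOK and BAD kept their direction under every alternative in which they had a value. BAD for ORF against control, short of 1.5-fold, read 0 with the median over probe sets, the value of its probe set below the floor. Quantile normalization, loess centring and equal medians left every count of members past 1.5-fold as it was. Without a floor, which lets background readings into the ratios, 3 members were higher for ORF against control, 3 for shRNA against control, and 2 were lower for ORF against shRNA, through BCL2A1 and TNFSF10, where 13.5%, 14.9% and 14.8% of all genes were called that way. With the floor at the 75th percentile, 30 members stayed above it. The counts of higher members were 0 for ORF against control, 0 for shRNA against control and 1 for ORF against shRNA. Of all genes 0.868%, 1.33% and 0.770% were higher. For ORF against shRNA 0 members were lower, against 0.685% of all genes. With the median over probe sets, 0 members were higher for shRNA against control, 1 was higher and 0 lower for ORF against shRNA. Of all genes 1.90%, 1.44% and 1.39% were called that way. For BOK and BAD that median includes the 0 of a probe set below the floor. Without _x_at and _s_at probe sets, 25 members were above the floor. The counts were 0 higher for shRNA against control and 0 lower for ORF against shRNA, where 3.92% and 2.95% of all genes were called that way. BOK then had only its probe set below the floor, so it could not be called. The median ratio became 0.11 for ORF against control and −0.030 for shRNA against control. At 1.3-fold, 2 members were higher for ORF against control (BMF and FAS), 2 lower for shRNA against control (BAD and CASP10), and 4 higher and 2 lower for ORF against shRNA. Of all genes 7.49%, 8.72%, 7.30% and 7.15% were called that way. At 2-fold the counts that were 1 or 2 became 0, where 0.292% to 0.671% of all genes were called that way. Counts within 1.5 times the reported one, and medians within the median noise SD divided by the square root of the number of members, held for 53 values under alternatives, and the 22 beyond these limits are all given here. For single members 334 ratios stayed within 1 noise SD and 14 did not, with 0 reversals among members past 1.5-fold. Among ratios short of 1.5-fold, that of CYCS for ORF against control became 0.04 (quantile) and 0.01 (loess), and that of CFLAR −0.22 for shRNA against control and 0.43 for ORF against shRNA without _x_at and _s_at probe sets. With the median over probe sets DAXX for ORF against control became 0.15 and MCL1 for ORF against shRNA 0.10. APAF1 read 0 in all 3 comparisons, which is the value of its probe set below the floor, lying between 2 of opposite sign. The causes of the other shifts were not tested. No paired analysis was possible because each group has 1 array. Depth cannot be given for arrays, and dim genes such as BMF have the widest noise SD.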

Other observations

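Kinases tied to Hsp27 and cell survival, a list written with earlier results of these data known, were all above the floor (10 measured). PRKD1, a kinase that can phosphorylate Hsp27, was at least 1.5-fold higher with shRNA than with control. Its log2 signals were 6.27 with ORF, 6.65 with shRNA and 5.43 with control, which is below the floor, so the ratio of 0.73 (noise SD 0.394) depends on the floor. HIPK2, a kinase that acts on p53 and DAXX, read 10.32 with ORF, 10.33 with shRNA and 9.83 with control on its brightest probe set. The HIPK2 ratios were 0.49 for both against the same control array (noise SD 0.142 for ORF and 0.198 for shRNA). Of its 8 probe sets above the floor, 5 were positive and 3 negative in each of these comparisons. AKT1 differed from control by 0.25 with ORF and by 0.40 with shRNA (noise SD 0.159 and 0.208). AKT2, the other AKT gene of the list, differed by −0.37 and −0.23 on its brightest probe set (noise SD 0.128 and 0.186). Of the 7 AKT2 probe sets above the floor, 4 were positive and 3 negative with ORF, and 1 positive and 4 negative with shRNA. IKBKG, a subunit of the NF-kB kinase complex, differed by −0.26 and −0.38 on its brighter probe set (noise SD 0.202 and 0.254). Of the 2 IKBKG probe sets, 1 was positive and 1 negative with ORF, and both were negative with shRNA.

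Of 11 genes of the p53 list above the floor, 0 passed 1.5-fold in any comparison. MDM2, the ubiquitin ligase that restrains p53 and is itself a p53 target, read 11.60 with ORF, 11.67 with shRNA and 11.51 with control. The median log2 ratio of the list was 0.10 for ORF against control and −0.03 for shRNA against control.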
